A study of Homo sapiens with 6 samples.

Results

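The Kruppel-like factors (KLFs) described here are 10 transcription factor genes, KLF3, KLF4, KLF5, KLF6, KLF7, KLF9, KLF10, KLF11, KLF12 and KLF13, among 22933 gene symbols in the deposited RNA-Seq table. Each was found by its gene symbol and each stood at a single row, so that no choice between rows had to be made. The cells were PC-3, an established human prostate cancer cell line, carrying the rtTA2 transactivator and either the tdTom retrovirus (pRetroX-Tight-pPGK-tdTomato, control) or the TTP-tdTom retrovirus (pRetroX-Tight-TTP-pPGK-tdTomato). ZFP36 encodes TTP (tristetraprolin), which speeds the decay of mRNAs with AU-rich stretches after the coding sequence, in the 3′UTR. Both groups, of 3 samples each, were selected with G418, sorted by flow cytometry and kept in 300 ng/ml doxycycline (Dox) for 4 hours, so that they differed in labelling by the TTP insert alone. Both are transduced populations of 1 cell line, and nothing in the labels says that the samples of a group came from separate transductions. Each group is its own transduced and sorted population, and every sample was given Dox. An effect of TTP induction therefore cannot be told apart from a standing difference between the populations.

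The table gives 1 FPKM value per group, the authors' value over the 3 samples (FPKM is fragments per length of transcript and per depth of mapped fragments). No value per sample was analysed here, so that no difference below has a replicate error or a test, and the number of fragments behind each value is not in the table. Fold changes are ratios of the TTP-tdTom to the tdTom value on the log2 scale, with 0 added to either value. A difference is counted at 1.5-fold or more, which is -0.585 or 0.585 on that scale. A gene counted as expressed when either FPKM reached 1 and neither was 0, which held for 13004 symbols. At ZFP36 the FPKM was 5.56 in tdTom and 5.54 in TTP-tdTom, so that the group labelled TTP-tdTom was not higher at the locus of the induced gene. Whether fragments of the retroviral insert were counted at that locus was not analysed here, and every direction below follows the label of the group. The epithelial keratins KRT8, KRT18 and KRT19 lay between 19.1 and 98.2 FPKM in both groups, whereas the epithelial cadherin CDH1 was at 0.119 and 0.390. The mesenchymal marker VIM was at 1159 in tdTom and 899 in TTP-tdTom, and the blood and endothelial markers PTPRC and PECAM1 were below 1 in both groups. COL1A1, a fibroblast collagen gene, was at 4.34 and 4.56 FPKM, and COL1A2 was listed at 0 in tdTom and at 1.38 in TTP-tdTom. The summed FPKM of these last 4 markers was 5.07 and 7.29, and their part in the results was not tested.

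KLFs bind GC-rich and CACCC-type boxes in promoters through C2H2 zinc fingers at the end of the protein, and they differ in the parts that recruit partners. KLF3 and KLF12 bind the corepressor CtBP. KLF4, KLF5, KLF6 and KLF7 act mainly as activators, although KLF4 can repress. KLF9, KLF10, KLF11 and KLF13 carry a motif that binds the corepressor Sin3A. In epithelia KLF4 is known for differentiation and KLF5 for proliferation, KLF6 has been studied as a growth suppressor in the prostate, and KLF10 and KLF11 were first described as early targets of TGF-β.

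Because TTP binds UAUUUAU and close variants of it, this heptamer was looked for in the longest 3′UTR that GENCODE release 29 annotates for a gene. It was present in 5 of the 10 genes, with 1 copy each, in KLF5, KLF6, KLF7, KLF11 and KLF12. These sites are shown 5′ to 3′ because they are the sequences by which TTP could recognise the transcripts, with the heptamer in capitals.
KLF5: uuguuuaucuuUAUUUAUuuugugguaaua
KLF6: uauguuucucuUAUUUAUgccuugaggacu
KLF7: gccuucucuggUAUUUAUaauauaucacag
KLF11: uuuuagaaaaaUAUUUAUauuguuggugcu
KLF12: uguuguucuugUAUUUAUguauaguguaug
The KLF5 site spans bases 1302 to 1308 of a 3′UTR of 1656 bases, and it was the only one of the 5 that extended to the nonamer UUAUUUAUU. The KLF6 site lies at bases 1195 to 1201 of 3556, the KLF11 site at 384 to 390 of 2329, the KLF7 site at 5767 to 5773 of 7076 and the KLF12 site at 9057 to 9063 of 9401. KLF4, which had the lowest ratio of the 10 (below), held no heptamer in its 899 bases. Its AUUUA pentamers, the shorter core of AU-rich elements, are shown in capitals for comparison.
KLF4, first copy: cuuccgaucaacAUUUAugaccuaagucag
KLF4, second copy: uauguaauauaaAUUUAagcaaacgucuau
KLF3, KLF9, KLF10 and KLF13 held no heptamer in 3′UTRs of 3779, 3179, 1353 and 5600 bases. The 10 3′UTRs had a median of 3368 bases, against 1383 bases over the 11847 expressed symbols with an annotated 3′UTR. Among those symbols 36.0% held at least 1 UAUUUAU and 9.46% held UUAUUUAUU. All sites here are matches of letters, and binding was not measured in this series. Which 3′UTR ends the PC-3 cells use was not analysed here, and a transcript that ends before a site would lack it.

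As deposited, 8 of the 10 KLF genes were lower in TTP-tdTom than in tdTom and 2 were higher. Among the 9 expressed ones, each of which reached an FPKM of 1 in both groups, 8 were lower, beside 78.5% of all expressed symbols. Lower by 1.5-fold or more were 5 of them, KLF4, KLF5, KLF6, KLF11 and KLF12, and none was higher by that fold. Of all 13004 expressed symbols 22.8% were lower by 1.5-fold or more and 3.9% were higher, and the share of the 9 expressed KLF genes that was lower was 55.6%. Their median log2 fold change was -0.58 over all 10 and -0.59 over the 9 expressed ones, and that of the expressed symbols was -0.235. These genes were chosen with earlier results of these data known. KLF16 and KLF2, expressed but outside the list, were lower by less than 1.5-fold (below). The count depends on genes next to the threshold, since KLF12, at -0.59, was the last inside and KLF10, at -0.57, the first outside. At 2-fold or more only KLF4 remained, against 8.65% of the expressed symbols. Centred on the median of expressed symbols, a shift of 0.235, the count was 2 (KLF4 and KLF5), beside 13.6% of the symbols counted in the same way, and KLF13 changed sign. Scaling both groups to the same FPKM sum over all loci turned every KLF gene higher by adding 3.09 to each value. In that sum 92 loci without a gene symbol, each over 100000 FPKM in tdTom, held 99.2% of the tdTom total. Scaled over loci with a symbol, the shift was 0.052 and the directions were as deposited except for KLF13, which came to 0.0010.

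**Figure D1:**
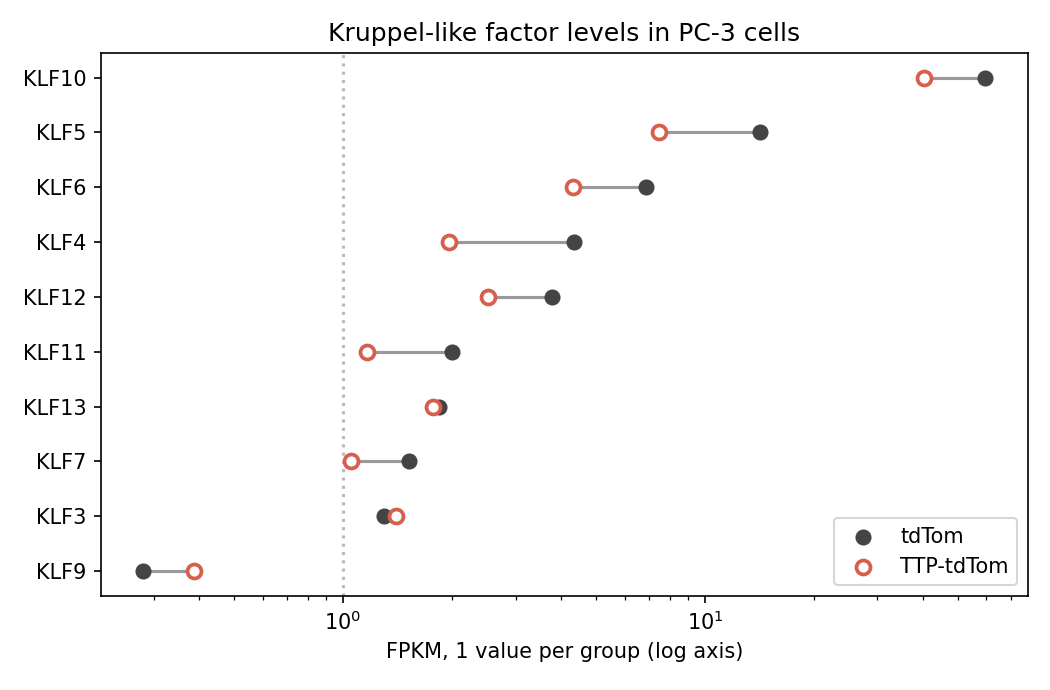
FPKM of the 10 KLF genes on a log axis, with filled points for tdTom and open points for TTP-tdTom, 1 authors' value per group and no error; the dotted line marks an FPKM of 1. The points of KLF10 lie furthest right, at 59.6 and 40.3, the open point is the left one in 8 genes, and KLF9 is the one gene below 1 in both groups.

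The levels spanned a wide range within the family. In tdTom KLF10 was at 59.6 FPKM, KLF5 at 14.2, KLF6 at 6.87, KLF4 at 4.35, KLF12 at 3.79 and KLF11 at 2.01. KLF13, KLF7 and KLF3 followed at 1.84, 1.52 and 1.296, and KLF9 was at 0.280. As FPKM is scaled to transcript length, these levels can be set beside each other, but with 1 value per group it cannot be said which neighbours in the order differ beyond their spread. KLF10 alone made up 62.2% of the summed FPKM of the 10 genes in tdTom and 64.6% in TTP-tdTom, and the sum itself was 95.8 and 62.3. The leading genes KLF10, KLF5 and KLF6 held ranks 1, 2 and 3 in both groups. KLF4 held rank 4 in tdTom and rank 5 in TTP-tdTom, where KLF12 stood above it, and KLF11 went from rank 6 to rank 8.

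Of the 10 genes, the activating members KLF4 and KLF5 had the lowest ratios. KLF4, a reprogramming factor that is induced when epithelial cells leave the cell cycle, lies on chromosome 9 of GRCh37 from 110247133 to 110252047. Its FPKM was 4.35 in tdTom and 1.96 in TTP-tdTom, so that 45.1% of the control level was left and the log2 fold change was -1.15. Only 5.68% of the expressed symbols had a lower fold change. KLF5, which promotes proliferation of basal epithelial cells, lies on chromosome 13 from 73633120 to 73651779. It was at 14.2 and 7.45 FPKM, with 52.4% left and a log2 fold change of -0.93, and 10.5% of expressed symbols were lower still. KLF6, on chromosome 10 from 3818188 to 3827473, was at 6.87 and 4.33, with 63.0% left and a log2 fold change of -0.67. KLF7, known for its part in neurons and in the outgrowth of axons, was at 1.52 and 1.05 FPKM, with 69.2% left and a log2 fold change of -0.53, which is short of 1.5-fold. All 4 members of this group were lower as deposited, beside 78.5% of expressed symbols, and 3 of them by 1.5-fold or more, beside 22.8%. The median of their log2 fold changes was -0.80. KLF7 lies on chromosome 2, and its row, from 207938862 to 208031970, shares these coordinates with the row of the microRNA gene MIR2355, which is listed at 0 in both groups.

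Of the Sin3A-binding members 3 were expressed. KLF11, on chromosome 2 from 10183682 to 10195660, was at 2.01 FPKM in tdTom and 1.16 in TTP-tdTom, with 57.9% left and a log2 fold change of -0.79. KLF10, its close relative and the most abundant KLF, lies on chromosome 8 from 103659472 to 103668200. It was at 59.6 and 40.3 FPKM, with 67.6% left and a log2 fold change of -0.57. In FPKM units this was the largest difference of the 10, at -19.3, while that of KLF5 was -6.77 and that of KLF4 -2.39. KLF13, a regulator of the chemokine gene CCL5 in T cells, lies on chromosome 15 from 31619083 to 31670102 and was at 1.84 and 1.78, a log2 fold change of -0.051. KLF9, which responds to thyroid hormone and glucocorticoids, was below the expression minimum at 0.280 and 0.387 FPKM on chromosome 9 from 72999513 to 73029573. Its log2 fold change of 0.47 was the highest of the 10. Over the 3 expressed genes of this group the range was from -0.79 to -0.051, beside -1.15 to -0.53 in the activating members.

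The CtBP-binding members differed in sign. KLF12, a repressor of the AP-2α gene, lies on chromosome 13 from 74260149 to 74708244, about 608 kb beyond KLF5, and no other expressed symbol lies between them. It was at 3.79 FPKM in tdTom and 2.51 in TTP-tdTom, with 66.4% left and a log2 fold change of -0.59. KLF3, a repressor studied in blood and fat cells, was at 1.296 and 1.404 FPKM on chromosome 4, a log2 fold change of 0.12, and 85.9% of the expressed symbols had a lower one. The row of KLF3, from 38614322 to 38703129, shares its coordinates with FLJ13197, which was at 0.290 and 0.389 FPKM.

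**Figure D2:**
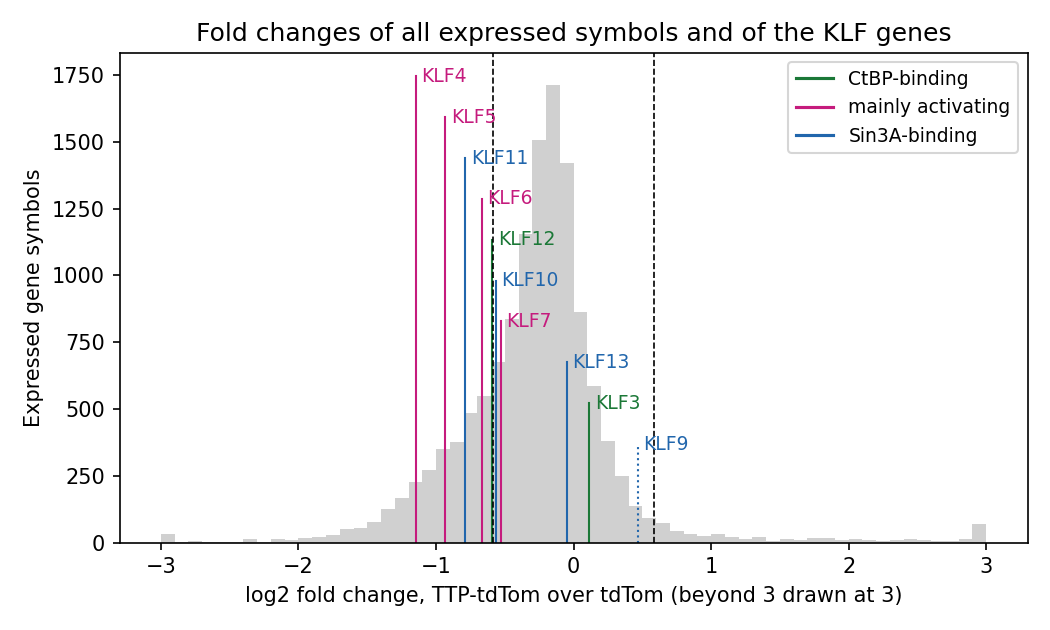
Log2 fold change (TTP-tdTom over tdTom, as deposited) of the 13004 expressed symbols as a grey histogram, counts on the vertical axis, with a line for each KLF gene coloured by partner class; dashed lines mark 1.5-fold and the dotted line is KLF9, which was not expressed. Lines for 5 genes, KLF4, KLF5, KLF11, KLF6 and KLF12, stand left of -0.585, and line height carries no value.

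When the genes were divided by the heptamer shown above, the 5 with UAUUUAU had log2 fold changes from -0.93 to -0.53 with a median of -0.67, and 4 of them were lower by 1.5-fold or more, where 31.7% of the expressed symbols with 1 copy were. The 5 without it ranged from -1.15 to 0.47 with a median of -0.051, and only KLF4 among them was lower by that fold, where 14.0% of the symbols with no copy were. The upper end of this range is KLF9, which was below the expression minimum. Without KLF9 the highest is KLF3 at 0.12, and the median lies between KLF10 at -0.57 and KLF13 at -0.051. The split in these counts depended on the scaling. Centred on the median of expressed symbols, only KLF5 with the heptamer and KLF4 without it were counted, beside 13.6% of expressed symbols. Centred on the decile of transcript GC content (below), the same 2 genes were, beside 7.83% of expressed symbols with a 3′UTR. Relative to the FPKM band (below) KLF11 was counted as well, beside 13.9% of expressed symbols. As deposited, the ranges overlapped because of KLF4 and KLF10, whose 3′UTRs hold 2 and 3 AUUUA pentamers and no heptamer. KLF7 held 20 AUUUA pentamers and KLF12 held 13, while KLF5 held 5 and KLF6 and KLF11 held 6 each, fewer than the 8 each in KLF3 and KLF9. Across the expressed symbols the median log2 fold change was -0.17 for 7579 symbols with no UAUUUAU, -0.36 for 2446 with 1 copy, -0.53 for 960 with 2 and -0.63 for 443 with 3. For 419 symbols with 4 or more copies it was -0.63 again, so that it was no lower than at 3 copies. The 5 KLF genes with 1 copy all lay below the median of symbols with 1 copy. KLF4 and KLF10 lay below the lower quartile of symbols with no copy, -0.37, and KLF3, KLF9 and KLF13 above the median. Genes are not replicates, and this is a description. Copies also moved with other properties of the 3′UTR, since its median length was 914 bases at 0 copies and 3727 at 3, and its median GC content 45.8% and 36.3%, and their part in the result was not tested.

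**Figure D3:**
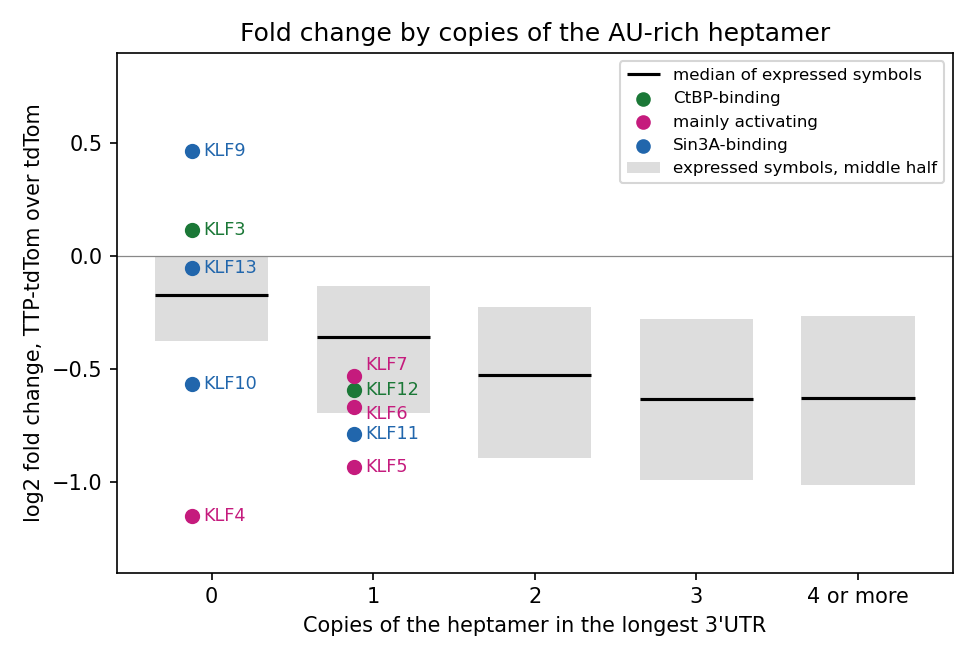
Log2 fold change (TTP-tdTom over tdTom, as deposited) against the number of UAUUUAU copies in the longest 3′UTR, with KLF genes as coloured points, the spread of expressed symbols as grey boxes from the lower to the upper quartile, and black lines for their medians. The black lines run from -0.17 at 0 copies to -0.63 at 3 and at 4 or more, and KLF4, at 0 copies, is the lowest coloured point.

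How often a 3′UTR holds the heptamer depended on its length. Of the expressed symbols with a 3′UTR close in length to that of KLF5 (from 0.8 of it to its length divided by 0.8), 37.9% held at least 1 copy, and the figure was 48.2% for KLF11, 61.9% for KLF6, 78.9% for KLF7 and 87.1% for KLF12. Such symbols had a median of 2 copies at the length of KLF7 or KLF12, where these genes held 1. At the lengths of KLF3, KLF9 and KLF13, which held none, 63.5%, 58.3% and 73.9% of symbols held at least 1. At the shorter lengths of KLF4 and KLF10, which also held none, the figures were 23.1% and 31.4%. The transcripts also differed in GC content, from 38.8% in KLF12 to 57.6% in KLF13, with 55.0% in KLF4. The median expressed symbol in the GC decile of KLF12 had a log2 fold change of -0.58, practically that of KLF12 itself. In the decile of KLF4 and KLF13 the median was -0.11, so that relative to symbols of similar composition KLF4 was at -1.04 and KLF13 at 0.062. Centred in this way 2 genes were lower by 1.5-fold or more, KLF4 and KLF5, beside 7.83% of the expressed symbols with a 3′UTR.

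Level moved with the fold change as well. The median log2 fold change was 0.21 for the 6081 symbols whose mean FPKM over the groups was under 0.5, -0.052 for those from 1 to 2, -0.21 from 2 to 5, -0.29 from 5 to 20 and -0.28 from 20 to 100. Over 100 FPKM it was -0.20 for 668 symbols, of which 11.5% were lower by 1.5-fold or more, beside 27.5% from 5 to 20. KLF9, at 0.47, belongs to the lowest of these bands, in which 31.3% of symbols were higher by 1.5-fold or more and 16.7% were lower. KLF3, KLF7, KLF11 and KLF13 share the band from 1 to 2, and their log2 fold changes less the band median were 0.17, -0.48, -0.74 and 0.0014. On the same scale KLF4 was at -0.93, KLF5 at -0.65, KLF6 and KLF12 at -0.38 and KLF10 at -0.29. Relative to their bands 3 genes were lower by 1.5-fold or more, KLF4, KLF5 and KLF11, beside 13.9% of the expressed symbols. The part of level in these differences was not tested.

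**Figure D4:**
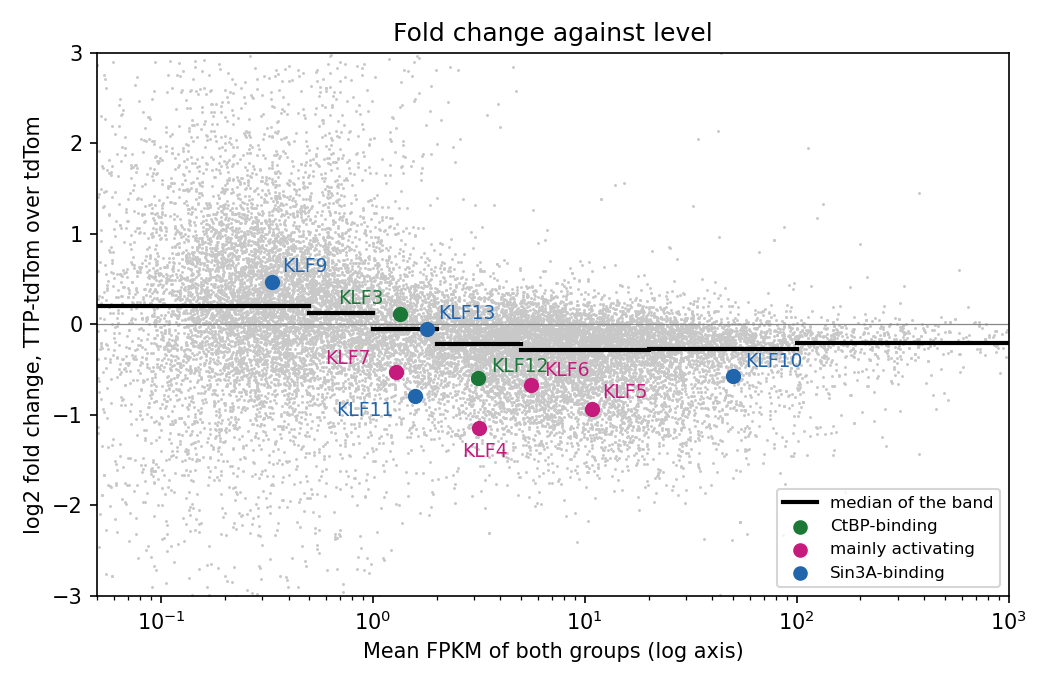
Log2 fold change (TTP-tdTom over tdTom, as deposited) against the mean FPKM of both groups on a log axis, with grey points for symbols above 0 in both groups, black lines for the median of each FPKM band and coloured points for the KLF genes. The black lines go from 0.21 under 0.5 FPKM to -0.29 between 5 and 20 and lie at -0.20 over 100. KLF4, KLF5 and KLF11 are the coloured points furthest below their line. Symbols outside the plotted ranges are left out.

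The rest of the family was mostly below the expression minimum. Of the other 7 KLF symbols looked up, only KLF16 and KLF2 were expressed, at 3.37 and 1.67 FPKM in tdTom and at 2.29 and 1.26 in TTP-tdTom. Their log2 fold changes were -0.56 and -0.41, both short of 1.5-fold. KLF1, KLF8, KLF14, KLF15 and KLF17 were below 1 FPKM in both groups at the rows used. The SP factors share the zinc fingers and the GC-box sites of the KLFs, and 5 of 9 were expressed. SP3 was at 12.4 and 5.41 FPKM with a log2 fold change of -1.19, and SP4 at 1.02 and 0.589 with -0.80, the 2 SP genes lower by 1.5-fold or more (40.0% of the 5, beside 22.8% of all expressed symbols). SP4 reached the expression minimum only in tdTom, the group where it was high. SP1 and SP2, at 32.6 and 19.1 FPKM in tdTom, had log2 fold changes of -0.41 and -0.53, and SP6 was higher at 0.33. The median of the 5 was -0.53.

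Corepressors that KLFs recruit were read next. All 13 were expressed, all 13 were lower as deposited, and 1 of them by 1.5-fold or more, with a median log2 fold change of -0.25. That is 7.69% of the list, beside 22.8% of all expressed symbols, of which 78.5% were lower by any size. That gene was the histone deacetylase HDAC2, at 30.8 and 15.0 FPKM with -1.04. SIN3A, the scaffold that binds KLF9, KLF10, KLF11 and KLF13, was nearest to 0, at 17.8 and 17.2 FPKM with -0.048, and CTBP1 and CTBP2, the partners of KLF3 and KLF12, were at -0.096 and -0.050. Among the acetyltransferases and remodelling subunits that act as coactivators, 5 of 6 were expressed and 2 were lower by 1.5-fold or more, 40.0% beside the same 22.8%. KAT2B was the lowest of them at 7.02 and 3.11 FPKM with a log2 fold change of -1.17, EP300 followed at -0.75, and SMARCA4 was the nearest to 0 at -0.30.

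Enzymes that attach or remove ubiquitin, some of which act on KLF proteins, were also compared. Of 13 genes 12 were expressed and 4 were lower by 1.5-fold or more, 33.3% beside 22.8% of all expressed symbols, with a median log2 fold change of -0.41. WWP1, a ubiquitin ligase known to act on KLF5, was at 60.8 and 33.5 FPKM with -0.86, while FBXW7, another ligase for KLF5, was at 23.4 and 22.0 with -0.090. NEDD4 was the lowest, at 75.0 and 39.0 FPKM with -0.95, and the deubiquitinase BAP1 was nearest to 0, at 9.26 in both groups. Of 19 genes described as targets of KLFs, 17 were expressed, 5 were lower by 1.5-fold or more and 1 was higher. The lower ones were 29.4%, near the 22.8% of all expressed symbols. VEGFA, an angiogenic growth factor, was at 10.7 and 3.45 FPKM with a log2 fold change of -1.64. CCND1, the cyclin D1 gene that KLF5 activates, was at 404.1 and 208.4 with -0.96, and CDKN1A, the cell cycle inhibitor that KLF4 and KLF6 activate, was at 2.08 and 1.68 with -0.31. LAMA1, a laminin gene, was higher, at 0.891 and 1.505 FPKM with 0.76, and it reached the expression minimum only in TTP-tdTom, where it was high. The receptors TGFBR1 and TGFBR2, upstream of KLF10 and KLF11 in TGF-β signalling, had log2 fold changes of -1.18 and -1.13. Whether any of these differences follows from a KLF was not tested.

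Immediate early and AP-1 factors are transcription factors that, like several KLFs, are induced soon after a stimulus. Of 15 genes 10 were expressed, 1 was lower by 1.5-fold or more and 1 higher, and the median log2 fold change was -0.013. Over all expressed symbols 22.8% were lower and 3.9% higher by that fold, with a median of -0.235. IER3 was at 36.4 and 17.3 FPKM with -1.07, and ATF3 at 0.773 and 1.27 with 0.71, so that ATF3 reached the expression minimum only where it was high. FOSL1, the most abundant, was at 1404 and 1261 with -0.16. Of 380 expressed genes named ZNF, which like the KLFs encode zinc finger proteins, 50 were lower by 1.5-fold or more, 13.2% beside 22.8% of all expressed symbols, and the median was -0.15. In this list ZNF546, which reached the minimum only in tdTom, was at -2.58 and ZNF208 at 2.32. The difference between these lists and the KLF genes was not tested, and 1 value per group gives no replicate error.

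**Figure D5:**
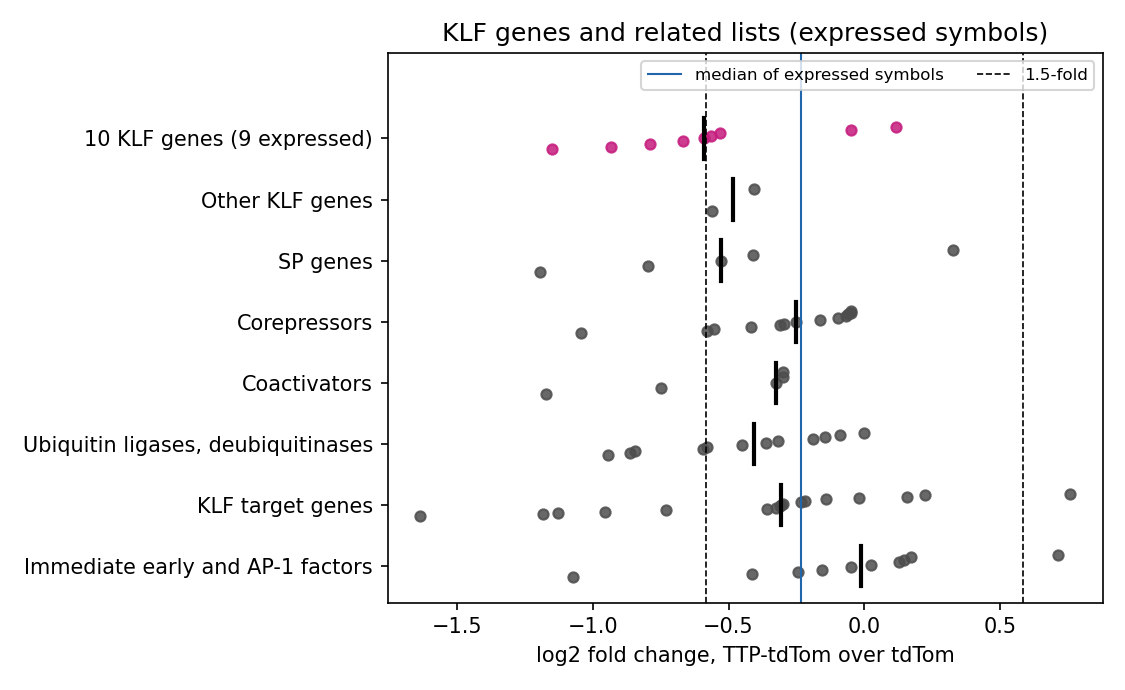
Log2 fold change (TTP-tdTom over tdTom, as deposited) of each expressed gene in the KLF list and 7 related lists, with a point per gene and a short black line at each list's median; the blue line is the median of expressed symbols, -0.235, and dashed lines mark 1.5-fold. The black line of the KLF genes, at -0.59, is the leftmost, and that of the immediate early factors, at -0.013, the rightmost.

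The genes next to the KLF loci were read for comparison. The nearest expressed symbols on either side were 20 genes outside the list, of which 5 were lower by 1.5-fold or more and 2 were higher, with a median log2 fold change of -0.44. These 5 of 20 lie near the 22.8% of all expressed symbols, and both higher ones, ODF1 and LOC283710, reached the expression minimum only in TTP-tdTom. KLF4 lies between RAD23B and IKBKAP, which had log2 fold changes of -0.26 and -0.45 beside its -1.15. KLF11 lies between GRHL1, 41.3 kb away at -0.54, and RRM2, 67.0 kb away at -0.81, close to its own -0.79. KLF9 lies 29.5 kb from SMC5, which was at 20.2 and 9.17 FPKM with -1.14 where KLF9 itself was at 0.47. KLF10 lies between ODF1, at 0.231 and 1.28 FPKM, and AZIN1, at 60.8 and 32.4 with -0.91. Of the other members of the TTP family, ZFP36L1 was at 40.3 and 23.3 FPKM with a log2 fold change of -0.79, and ZFP36L2 at 53.9 and 22.7 with -1.25.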

How the data were processed

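The authors extracted RNA from 3 tdTom and 3 TTP-tdTom samples of PC-3 cells, made strand-specific libraries and sequenced them in paired-end runs. Reads were aligned to Hs37D5 (GRCh37 with decoy sequence) with TopHat2 2.0.13 and condensed and compared with Cufflinks 2.2.1, per the methods and the submitters' processing notes. The deposited table holds the authors' FPKM values, 1 per group, at 406165 assembled loci. Its columns of the authors' comparison (fold change, test statistic, p, q and a call) were not used. The methods give the read pairs aimed for per sample, not those obtained, and FPKM holds no counts, so that no counting interval was computed.

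Symbols at several rows were represented by the row with the most RefSeq names, then the highest FPKM. Starts of loci were turned to count from 1, and a row's coordinates can cover overlapping loci. Fold changes were computed from the group values and counted at 1.5-fold, and the design's replicate fit was not run, as the table has no values per sample. 3′UTRs came from protein-coding transcripts of GENCODE release 29 with a complete end, matched by symbol or NCBI synonym (91.1% of expressed symbols). Genes named in the text are the 10 members, expressed KLF and SP genes, the extremes of each list, nearest neighbours and the ZFP36 family; others were named after their values were seen. The members and lists were chosen with earlier results of these data known. Scripts were tested on simulated data with 200 changed genes. Alternatives covered pseudocounts, filters, row choice, scaling and the threshold. Python 3.11.15, numpy 2.4.6, pandas 2.3.3 and matplotlib 3.10.9 were used.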

Additional observations from a re-analysis of the deposited data

Results flagged for a closer look

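A row without a gene symbol stood at the same coordinates as KLF10 and was not used in any comparison. It was at 0.951 FPKM in TTP-tdTom and 0.353 in tdTom, opposite in direction to KLF10 itself, and which strand it lies on was not analysed here. A second row named KLF8, with 1 RefSeq name fewer than the row used, was at 1.73 FPKM in TTP-tdTom and listed at 0 in tdTom, whereas the row used was at 0.371 and 0.277. Both were singled out because they lie above the control group in rows outside the comparisons, and neither difference was tested.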

How the results depend on the processing

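No paired analysis was possible because the table holds 1 value per group, and for the same reason no replicate could be left out. With no spread to compare against, a fold change was read as moved when it shifted by 0.1 or more on the log2 scale. The count of KLF genes lower by 1.5-fold or more, 5, was 4 with a pseudocount of 0.1 (beside 22.3% of expressed symbols) and with the same sum over loci with a symbol (20.5%). It was 2 with a pseudocount of 1 (median log2 fold change -0.48, 17.9% of symbols), 2 when centred on the median of expressed symbols (median -0.36) and 1 among the 2 genes with an FPKM of at least 10 (median -0.75, 26.7% of symbols). It was 1 at 2-fold. In scalings chosen after seeing the data it was 3 relative to the FPKM band (median -0.38, 13.9% of symbols) and 2 relative to the GC decile (median -0.31, 7.83% of symbols), where KLF12 came to -0.016. The share of expressed symbols lower, 22.8%, was 13.6% after centring and 8.65% at 2-fold. With the same sum over all loci the count was 0, the median 2.50 and the share of symbols 0.0769%. There KLF4 came to 1.94, KLF5 to 2.16, KLF6 to 2.43, KLF11 to 2.31 and KLF12 to 2.50, all by the uniform shift of 3.09. The other choices of row changed nothing, as each gene had a single row. KLF4 and KLF5 were lower by 1.5-fold or more under every pseudocount and under every scaling but that over all loci. As the table holds no counts, no counting limit was computed for the KLF genes at low FPKM.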
